A study of Danio rerio with 4 samples.

Results

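Cardiac fibroblasts were examined in single-cell libraries of adult zebrafish hearts (Danio rerio, genotype AB) collected 6 h after a cryoinjury (6 hpci) or after a sham injury (6 hps). They comprised 1707 of the 51318 cell barcodes that passed the quality limits, out of 78127 barcodes deposited. A barcode was kept when it had at least 500 unique molecular identifiers (UMIs, which count RNA molecules), at least 200 detected genes, at most 50% of its UMIs from the mitochondrial genome and less than 25% from 4 adult globin genes. A kept barcode counted as a fibroblast when at least 2 of 8 genes (col1a1a, col1a1b, col1a2, col5a1, dcn, lum, pdgfra and mmp2) were detected with at least 3 UMIs together, when more of these genes were detected than of 8 epicardial genes (tbx18, tcf21, aldh1a2, podxl, jam2b, wt1b, krt94 and s100a10a), and when rgs5a, a marker of mural cells, had 0 UMIs. The cells were thus chosen by the measured UMIs of these genes, whose levels are given below as a description and not as a finding.

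The cryoinjury group comprised 2 libraries in which a probe precooled in liquid nitrogen had been applied to the ventricle. The sham group comprised 2 libraries of fish whose pericardium was opened without applying the probe. All fish of both groups had received an intrathoracic injection of 4-thiouridine (4sU), a uridine analog incorporated into newly made RNA, before the operation, and were kept in water with morphine afterwards. The cells of both groups were fixed in methanol and treated with iodoacetamide, and each library pooled several hearts, so values of single animals cannot be separated. Labeled and unlabeled transcripts were not told apart in these counts, which therefore concern the total RNA of a cell.

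Fibroblasts are the main producers of the fibrillar and basement membrane collagens, proteoglycans and glycoproteins that hold heart tissue together, and they release enzymes and inhibitors that remodel this matrix. In the zebrafish heart, most of them derive from the epicardium, the cell layer that covers the ventricle, and a smaller part derives from the endocardium that lines it. After a cryoinjury the zebrafish heart deposits a transient scar matrix, which is later cleared as muscle regrows.

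Fibroblasts numbered 267 and 434 in the 6 hpci libraries (replicates 1 and 2) and 215 and 791 in the 6 hps libraries. Their summed UMIs were 2485554 and 5068554 at 6 hpci and 2410679 and 9296132 at 6 hps, so sham replicate 2 was the deepest and sham replicate 1 the shallowest sum. The median fibroblast held 6023 and 6418 UMIs at 6 hpci and 6792 and 7105 UMIs at 6 hps. Whole libraries held 86891164 and 114742778 UMIs at 6 hpci and 114879348 and 136777379 UMIs at 6 hps. Cryoinjury replicate 2 stood apart, since 46.4% of its barcodes exceeded the mitochondrial limit, against 15.7% to 20.01% in the other 3 libraries. Between 84 and 293 barcode sequences occurred in a given pair of libraries (0.526% to 1.83% of the smaller list), and no fibroblast barcode was a fibroblast in another library.

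The defining fibroblast genes col1a2, dcn, lum, pdgfra and mmp2 all belong to the rule. Their levels describe the chosen cells and are no check of the label. Levels in this and the next paragraphs are raw CPM, the UMIs of a gene per 1000000 UMIs of the cells. The collagen I chain gene col1a2 was present at 113 and 182.9 raw CPM in 6 hpci fibroblasts and at 77.2 and 154 raw CPM in 6 hps fibroblasts. The gene of the collagen-binding proteoglycan decorin, dcn, was at 119 and 219 raw CPM at 6 hpci and at 99.1 and 129 at 6 hps, and the matrix metalloproteinase gene mmp2 was at 122 and 185 raw CPM at 6 hpci and at 109 and 76.8 at 6 hps. In the kept barcodes that no gate classed, col1a2 lay at 7.82 and 7.94 raw CPM at 6 hpci and at 4.81 and 14.3 at 6 hps. Of the defining markers, lum and pdgfra were close to absent. The proteoglycan gene lum was at 3.62 and 3.75 raw CPM at 6 hpci and at 2.90 and 4.52 at 6 hps. The platelet-derived growth factor receptor gene pdgfra, a common fibroblast marker, was at 2.01 and 1.18 raw CPM at 6 hpci and at 5.81 and 10.3 at 6 hps. The cells were therefore defined by collagen I, collagen V, dcn and mmp2, and the 8 genes together made up 6.67 and 11.03 UMIs per 10000 at 6 hpci and 5.55 and 7.94 per 10000 at 6 hps, against 0.358 to 0.791 per 10000 in the unclassed barcodes. The group means differed by 0.39 on the log2 scale, less than the spread between libraries (SD 0.45), and the 6 hpci level was the higher one within both replicate numbers.

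Besides the genes of the rule, genes of several secreted matrix and plasma-type proteins were abundant in the gated cells of all 4 libraries. The retinol-binding protein gene rbp4 was the most abundant of them, at 2010 and 4002 raw CPM in 6 hpci fibroblasts and at 2264 and 2829 raw CPM in 6 hps fibroblasts. The microfibril component gene mfap5 was at 265 and 448 raw CPM at 6 hpci and at 278 and 316 at 6 hps. The collagen-binding glycoprotein gene sparc was at 529 and 1128 raw CPM at 6 hpci and at 367 and 730 at 6 hps, and fibronectin 1b, fn1b, was at 265 and 724 at 6 hpci and at 293 and 418 at 6 hps. The complement factor D gene cfd was at 559 and 610 raw CPM at 6 hpci and at 257 and 452 at 6 hps. Abundance of rbp4 and cfd was not particular to the gate. In barcodes gated as mural by rgs5a and other mural genes, rbp4 was at 926 and 4178 raw CPM at 6 hpci and at 912 and 1962 at 6 hps. There cfd was at 528 and 745 raw CPM at 6 hpci and at 234 and 849 at 6 hps. The mural barcodes thus exceeded the fibroblasts in cryoinjury replicate 2 for both genes and in sham replicate 2 for cfd. In all other kept barcodes together, mfap5 was at 45.5 and 54.4 raw CPM at 6 hpci and at 30.9 and 72.7 at 6 hps. There mfap5, sparc and fn1b lay below the fibroblasts in every library. rbp4, mfap5, sparc, fn1b and cfd were chosen after their values were seen. Their levels against other barcodes were not tested, since every gene of gated cells counts as used by the gate. Transcription factor genes of the epicardial lineage were scarce: tcf21 lay between 1.97 and 9.36 raw CPM and wt1b between 1.21 and 6.99 raw CPM over the 4 libraries, while tbx18 was at 9.25 and 18.9 raw CPM at 6 hpci and at 10.4 and 21.9 at 6 hps.

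**Figure D1:**
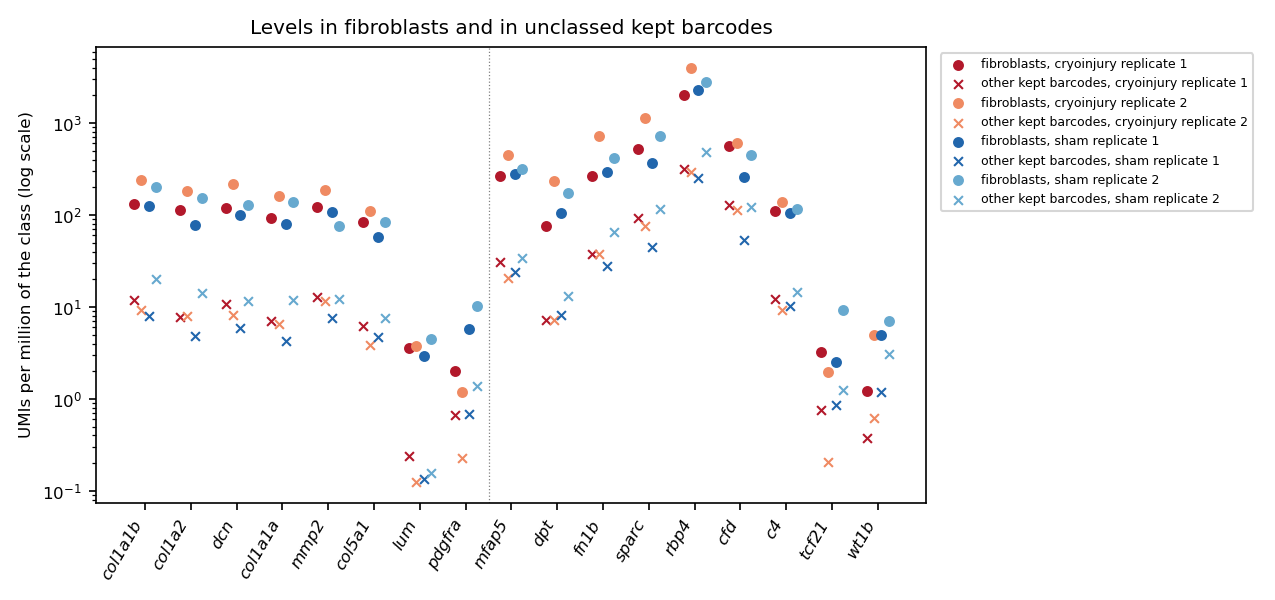
Levels of 17 genes, as raw CPM within a class (log scale, values under 0.1 drawn at 0.1), in fibroblasts (filled circles) and in the kept barcodes that no gate classed (crosses), with 1 point per library and the 6 hpci libraries left of the 6 hps libraries. The 8 genes left of the dotted line chose the cells. Apart from lum and pdgfra, they lie between 58.1 and 238 raw CPM in fibroblasts, and rbp4, sparc and fn1b lie higher although the rule did not use them.

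Keratin and annexin genes of the epicardial marker list were also abundant. krt94, which the rule counted against a cell, still had 612 and 2259 raw CPM in 6 hpci fibroblasts and 598 and 994 raw CPM in 6 hps fibroblasts. The type I keratin gene krt15 was at 382 and 1720 raw CPM at 6 hpci and at 320 and 607 at 6 hps, and anxa1a, which encodes a phospholipid-binding annexin, was at 596 and 1810 at 6 hpci and at 453 and 620 at 6 hps. All 3 genes were highest in cryoinjury replicate 2. The whole epicardial list of 13 genes took 0.280% and 0.944% of fibroblast UMIs at 6 hpci and 0.260% and 0.307% at 6 hps. In barcodes of the mirrored epicardial gate, where epicardial genes had to outnumber the fibroblast genes, the same list took 0.137% and 0.318% at 6 hpci and 0.127% and 0.247% at 6 hps, so this gate held less of the list than the fibroblast gate in every library. That gate also held more of the endothelial list (0.162% and 0.306% at 6 hpci, 0.174% and 0.205% at 6 hps) than the fibroblasts (0.0536% and 0.160% at 6 hpci, 0.0905% and 0.191% at 6 hps), and it is used below only as a neighboring gate, not as a pure cell type.

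RNA of other heart cells was present in the fibroblast sums. The 15 cardiomyocyte markers, all detected in each library, made up 6.10% and 5.16% of fibroblast UMIs at 6 hpci and 7.79% and 8.12% at 6 hps. In the unclassed barcodes they made up 9.11% and 10.6% at 6 hpci and 11.08% and 10.99% at 6 hps. The 10 erythrocyte markers made up 5.26% and 3.21% at 6 hpci and 1.597% and 3.32% at 6 hps. The 17 macrophage and leukocyte markers made up 0.0231% and 0.0560% at 6 hpci and 0.0165% and 0.0641% at 6 hps, the 8 neutrophil markers 0.0317% and 0.0425% at 6 hpci and 0.0250% and 0.102% at 6 hps, and the 14 mural markers 0.0270% and 0.0186% at 6 hpci and 0.0122% and 0.116% at 6 hps. Of these lists, the single gene at 0 in all 4 sums was rgs5a, which the rule excluded. Many single fibroblasts were doublet-like, with at least 3 genes of the endothelial list or at least 3 of the leukocyte list detected. Such cells numbered 67 of 267 and 129 of 434 at 6 hpci and 71 of 215 and 329 of 791 at 6 hps. They were kept in the main sums. How far this RNA contributed to the differences given below was not tested.

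The fibroblasts varied in how many of the 8 genes were detected. Most cells had between 2 and 5 of them, and 6 to 8 genes were detected in 90 of 434 cells of cryoinjury replicate 2 and in 8 of 215 cells of sham replicate 1. The number detected rose with depth in every library. Cells with 2 or 3 genes had a median of 4320.5 and 4946 UMIs at 6 hpci and 5895 and 5838.5 at 6 hps. Those with 6 to 8 genes had 13309.5 and 11621 at 6 hpci and 17839.5 and 9577 at 6 hps. In cryoinjury replicate 2, the cells with 6 to 8 genes had 635 raw CPM of mfap5 and 6179 raw CPM of rbp4, and those with 4 or 5 genes had 441 and 3415 raw CPM. This order did not hold in every library. In sham replicate 1 the cells with 6 to 8 genes had less, 209 and 2315 raw CPM, against 340 and 2724 in those with 4 or 5. In cryoinjury replicate 1 mfap5 was at 290 and 294 raw CPM in these sets and rbp4 at 2725 and 2462. In sham replicate 2 mfap5 was at 460 and 346 raw CPM and rbp4 at 3302 and 3146. In cryoinjury replicate 2 the cardiomyocyte list was at 3.75% of the UMIs in the cells with 6 to 8 genes and at 5.79% in those with 4 or 5. Cells with fewer than 5 UMIs of the 8 genes per 10000 made up 31.8% and 15.9% of the fibroblasts at 6 hpci and 35.8% and 26.9% at 6 hps. At the edge of the rule, cells with exactly 3 UMIs of these genes held 169.9, 64.4, 237 and 94.7 raw CPM of mfap5 in cryoinjury replicates 1 and 2 and sham replicates 1 and 2. Barcodes with 2 UMIs, which just missed the rule, held 108, 84.8, 158 and 70.21 raw CPM in the same libraries.

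A part of the fibroblasts carried most of their UMIs of spock3, which encodes a secreted proteoglycan of the SPARC family and also stands in the endocardial and endothelial list. This gene was not particular to fibroblasts, where it was at 211 and 722 raw CPM at 6 hpci and at 364 and 523 at 6 hps. In all other kept barcodes it was at 230 and 400 raw CPM at 6 hpci and at 326 and 331 at 6 hps. Cells with 5 or more spock3 UMIs made up 28 of 267 and 91 of 434 fibroblasts at 6 hpci and 49 of 215 and 179 of 791 at 6 hps. They held 86.8% and 97.9% of all spock3 UMIs at 6 hpci and 90.1% and 93.9% at 6 hps, while 71.1% to 83.7% of the remaining cells had none. The cell adhesion gene cdh5 (VE-cadherin), a defining endothelial gene, was at 30.3 and 99.8 raw CPM in the spock3-rich cells at 6 hpci and at 55.7 and 117 at 6 hps. In the remaining fibroblasts cdh5 was at 13.8 and 5.14 raw CPM at 6 hpci and at 19.9 and 14.3 at 6 hps. The C-type natriuretic peptide gene nppc was at 4.32 and 51.2 raw CPM in the spock3-rich cells at 6 hpci and at 49.4 and 378 at 6 hps, against 4.45 and 1.61 at 6 hpci and 5.48 and 8.35 at 6 hps in the remaining cells, so cryoinjury replicate 1 showed no difference.

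The spock3-rich cells were poorer in the matrix genes of the other fibroblasts. Their col1a2 level was 56.2 and 54.3 raw CPM at 6 hpci and 42.0 and 77.0 at 6 hps, whereas the remaining cells had 126 and 264 raw CPM at 6 hpci and 100.1 and 202 at 6 hps. For mfap5 the spock3-rich cells had 112 and 138 raw CPM at 6 hpci and 80.9 and 125 at 6 hps, against 300.1 and 642 at 6 hpci and 406 and 434 at 6 hps in the remaining cells. The spock3-rich cells were also deeper, with a median of 13600.5 and 12889 UMIs at 6 hpci and 15991 and 16466 at 6 hps, against 5499.5 to 5844 in the remaining cells. The limit of 5 UMIs was set after the values were seen and favors deep cells, and barcodes that hold more than 1 cell were not separated. The split is therefore given without a test.

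**Figure D2:**
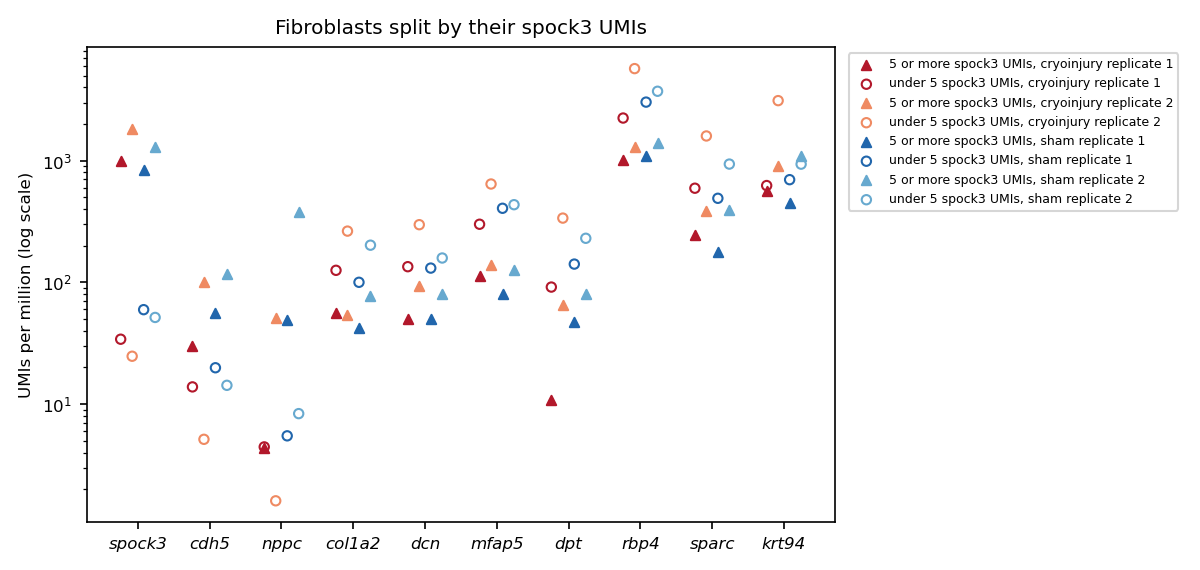
Raw CPM (log scale) of 10 genes in fibroblasts with 5 or more spock3 UMIs (triangles) and in the remaining fibroblasts (open circles), by library, with the 6 hpci libraries left of the 6 hps libraries. The spock3-rich cells lie above the remaining cells for cdh5 in all 4 libraries and below them for col1a2, dcn, mfap5, dpt, rbp4 and sparc.

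The share of fibroblasts did not separate the groups. Of the kept barcodes, 2.48% and 4.15% were fibroblasts at 6 hpci, with Wilson 95% intervals of 2.203 to 2.79 and 3.78 to 4.55. At 6 hps 1.418% and 5.30% were fibroblasts, with intervals of 1.24 to 1.62 and 4.95 to 5.67. The mean was 3.31% ± 1.18 at 6 hpci and 3.36% ± 2.74 at 6 hps (SD, n = 2 each), and both 6 hpci values lay between the 6 hps values (exact two-sided permutation test p = 1, where 2 against 2 libraries allow no p below 0.33). Between libraries with the same replicate number the share was 1.06 percentage points higher at 6 hpci for replicate 1 and lower for replicate 2, by a difference of -1.152 points. The condition on rgs5a removed 58.7% and 30.0% of the candidate cells at 6 hpci and 40.4% and 44.5% at 6 hps, and rgs5a was detected in 26.0% and 6.12% of kept barcodes at 6 hpci and in 6.49% and 18.95% at 6 hps. Without this condition, which was dropped after seeing the data, the share was 6.01% and 5.93% at 6 hpci and 2.38% and 9.55% at 6 hps, and the groups still overlapped. The intervals cover counting error only.

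**Figure D3:**
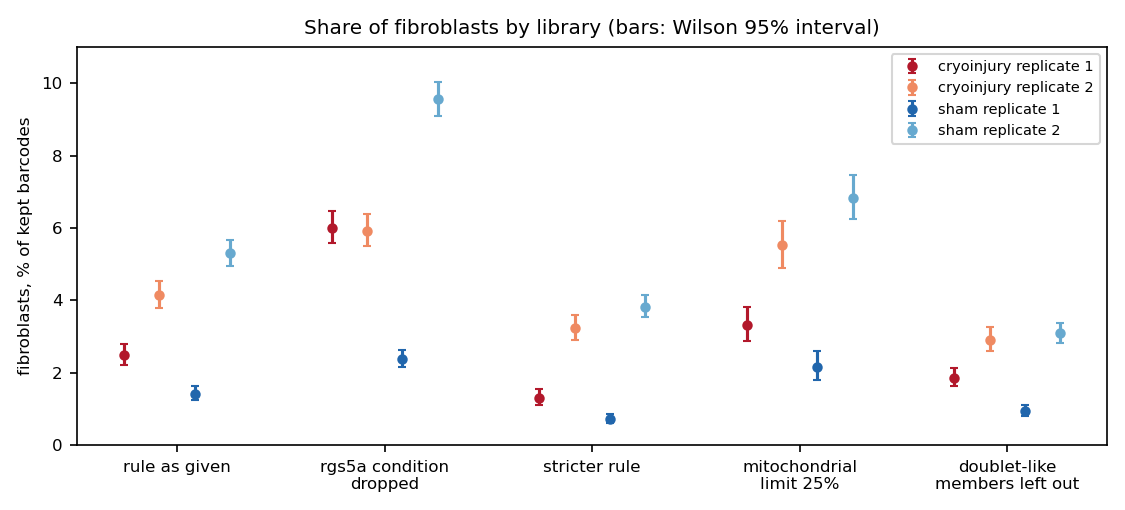
Fibroblasts as a percentage of kept barcodes in each library (points) with Wilson 95% intervals (bars), under the rule as given and under 4 alternatives, with the 6 hpci libraries left of the 6 hps libraries. Under each of them the 6 hpci values lie between the values of sham replicate 1 and sham replicate 2.

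To ask whether gene expression of fibroblasts differed 6 h after cryoinjury, the UMIs of all fibroblasts of a library were summed and the 4 sums were compared with edgeR's quasi-likelihood test. No gene of 5281 tested passed an adjusted p of 0.05 (0%, smallest adjusted p 0.540), while 473 genes (8.96%) had an unadjusted p under 0.05, 249 of them higher (4.72%) and 224 lower (4.24%) at 6 hpci. DESeq2, run without the count filter on 17894 genes, called 31 of them, 29 higher. Per the study's sample list, the operations of both replicate 1 libraries were done by the same experimenter and those of both replicate 2 libraries by a different experimenter. When this number entered as a block, 88 genes passed (1.67%), of which 64 were higher (1.21%) and 24 lower (0.454%). This block assumes that the libraries of a number form a pair, although the paper describes the cryoinjury and sham samples as independent. With 4 sums the block left few degrees of freedom, so its p-values rest largely on a spread estimated across all genes. Of the 88, 87 were not fibroblast or epicardial genes of the rule, but they include the globin genes hbaa1 and hbaa2, which the quality limits used. Of the 31 DESeq2 calls, 22 were among the 88. The 6 hpci and 6 hps values did not overlap for 40.7% of all genes tested, 17.4% higher and 23.4% lower at 6 hpci. The fold change was above 0 for 2434 of the 5281 genes and below 0 for 2847. Levels below are counts per 1000000 after scaling by TMM factors, written CPM, and fold changes are 6 hpci over 6 hps.

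The scaling shifted all fold changes by a similar amount. TMM factors were 0.872 and 0.764 at 6 hpci and 1.17 and 1.28 at 6 hps, and the median log2 fold change over all genes was -0.06 with them and -0.66 with library sizes alone. Ribosomal protein genes and mitochondrial transcripts took a large part of the UMIs, with ribosomal protein genes at 31.3% and 30.7% of UMIs at 6 hpci and at 29.0% and 24.5% at 6 hps. Directions of single genes and lists are therefore read relative to these medians. Whether groups overlapped was judged on the scaled CPM and depends on this scaling. In raw CPM the groups overlapped for sparc, postnb, hapln1a, mfap5, c4, fstl1b, hsp90ab1, rpl36a and rpl39, among others, which did not overlap in CPM. For fosab, which overlapped in CPM, they did not overlap in raw CPM (101 and 149 at 6 hpci, 213 and 627 at 6 hps). The same held for nppc (4.43 and 20.7 raw CPM at 6 hpci, 22.8 and 149.5 at 6 hps). It also held for junba, timp2b, cebpd, hspb1 and hmgb2a, all lower at 6 hpci in raw CPM.

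Genes of the extracellular matrix lay above the median of all genes. All 10 tested collagen chain genes that the rule did not use had a fold change above 0, with a median log2 fold change of 1.34 (0.67 with library sizes alone). Between the groups 6 of the 10 did not overlap, all on the higher side, where 17.4% of all genes tested did not overlap. None passed the test, and 2 did with the block, beside 1.21% of all genes tested that were called higher. These 2 were col6a1 and col6a4a, which encode chains of the microfibrillar collagen VI. The level of col6a1 was 60.3 and 137 CPM at 6 hpci and 30.3 and 41.6 CPM at 6 hps (adjusted p = 0.046 with the block), and that of col6a4a was 12.1 and 44.2 CPM at 6 hpci and 6.06 and 9.18 CPM at 6 hps (adjusted p = 0.020 with the block). Both are named because only 2 genes of the list were called, after their values were seen. The collagen genes of the rule were col1a1b (152 and 314 CPM at 6 hpci, 107 and 158 CPM at 6 hps), col1a2 (130 and 241 at 6 hpci, 66.3 and 122 at 6 hps), col1a1a (106 and 212 at 6 hpci, 68.4 and 108 at 6 hps) and col5a1 (96.0 and 147 at 6 hpci, 49.9 and 65.5 at 6 hps), whose levels chose the cells and were not tested. Cryoinjury replicate 2 was the highest library for each of them, and without it the collagen median was 0.58. Among cells with at least 5 UMIs of the rule genes per 10000, an alternative added after seeing the data, it was 1.103.

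For the wound matrix glycoproteins, 7 of 10 tested genes had a fold change above 0 and the median was 0.91 (0.25 with library sizes alone). Without cryoinjury replicate 2 it was -0.11. sparc was at 609 and 1485 CPM at 6 hpci and at 315 and 577 CPM at 6 hps, and its groups overlapped in raw CPM only. Its log2 fold change was 1.23 ± 0.52 (SE, adjusted p = 0.554, without cryoinjury replicate 2 0.46). postnb, which encodes periostin, a matricellular protein of healing tissue, was at 44.1 and 144 CPM at 6 hpci and at 28.9 and 35.3 CPM at 6 hps, a log2 fold change of 1.55 ± 0.58 (adjusted p = 0.540). The high value of cryoinjury replicate 2 decided its size, since without that library it was 0.46. fn1b was at 306 and 954 CPM at 6 hpci and at 252 and 330 CPM at 6 hps, and the groups overlapped. spock3 was at 243 and 951 CPM at 6 hpci and at 313 and 413 CPM at 6 hps, again overlapping. With the block 1 gene of the list was called, edil3a, an integrin-binding protein gene, at 7.89 and 30.1 CPM at 6 hpci and 2.85 and 6.97 CPM at 6 hps (adjusted p = 0.025). Over all genes tested, 1.21% were called higher with the block.

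Small leucine-rich proteoglycan, hyaluronan-binding and elastic fibre genes differed widely in level. Only 4 tested genes of the proteoglycan list were not part of the rule, with a median log2 fold change of 0.46, and 10 elastic fibre and crosslinking genes had a median of 0.49. Without cryoinjury replicate 2 both medians turned negative, to -0.74 and -0.57. The hyaluronan link protein gene hapln1a was at 38.0 and 113 CPM at 6 hpci and at 11.4 and 37.6 CPM at 6 hps, where the lower 6 hpci value exceeded the higher 6 hps value by less than 1 CPM. Its log2 fold change was 1.597 ± 0.70 (adjusted p = 0.554), and with the block 1.65 ± 0.36 (adjusted p = 0.014). Without cryoinjury replicate 2 it was 0.61, and without sham replicate 2 it was 2.68. hapln1b lay at 3.71 and 4.68 CPM at 6 hpci and at 5.34 and 6.97 CPM at 6 hps. mfap5 was at 306 and 590 CPM at 6 hpci and at 238 and 250 CPM at 6 hps, a log2 fold change of 0.88 ± 0.44 (adjusted p = 0.577, 0.33 without cryoinjury replicate 2 and 0.26 with library sizes alone). loxl2a, a lysyl oxidase that crosslinks collagen, was at 8.35 and 18.2 CPM at 6 hpci and at 4.28 and 5.27 CPM at 6 hps. loxl1, of the same enzyme family, and the collagen chaperone gene serpinh1b overlapped between the groups.

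Of the inhibitors of matrix metalloproteinases, timp2a and timp4.3 differed with the block and with DESeq2, but not with edgeR without the block. timp2a was at 72.4 and 150 CPM at 6 hpci and at 31.4 and 35.7 CPM at 6 hps. Its log2 fold change was 1.73 ± 0.47 (adjusted p = 0.540), with the block 1.66 ± 0.37 (adjusted p = 0.015), and DESeq2 called it as well (adjusted p = 0.022). timp4.3 was at 97.9 and 151 CPM at 6 hpci and at 43.1 and 45.2 CPM at 6 hps, a log2 fold change of 1.495 ± 0.41 (adjusted p = 0.540, with the block 0.027, with DESeq2 0.038). Both 6 hpci libraries lay above both 6 hps libraries for these genes, and the fold changes stayed above 0 with library sizes alone (1.11 and 0.89), but were 0.95 and 0.51 when each cell was thinned to 1000 UMIs, and without cryoinjury replicate 2 they were 1.12 and 1.16. timp2b, a paralog of timp2a, had 39.0 and 63.7 CPM at 6 hpci and 60.2 and 57.5 CPM at 6 hps, with overlapping groups. The collagenase gene mmp13a was called with the block, at 19.5 and 32.0 CPM at 6 hpci and at 6.41 and 9.01 CPM at 6 hps (adjusted p = 0.016). Over all genes tested, 1.21% were called higher with the block. Of the 9 tested genes of this list that the rule did not use, 6 had a fold change above 0. Without overlap were 4 of the 9, all 4 higher at 6 hpci, beside 17.4% of all genes tested.

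Complement genes act in innate defense and are made by many stromal cells. In the complement list 10 of 11 tested genes were above 0, with a median of 0.85 (0.23 with library sizes alone, 0.20 without cryoinjury replicate 2). This count includes c1qtnf5 (log2 fold change 1.33), which encodes a C1q-domain protein that is not a complement component. cfd was at 645 and 804 CPM at 6 hpci and at 221 and 357 CPM at 6 hps, a log2 fold change of 1.32 ± 0.40 (adjusted p = 0.540, with the block 0.053, with DESeq2 0.049). c4, a central component of the classical pathway, was at 127 and 184 CPM at 6 hpci and at 89.8 and 92.4 CPM at 6 hps, without overlap (log2 fold change 0.77 ± 0.40, adjusted p = 0.585). c6, a component of the membrane attack complex, had 180 and 440 CPM at 6 hpci and 117 and 199 CPM at 6 hps, and the secreted chaperone gene clu had 180 and 284 CPM at 6 hpci and 165 and 208 CPM at 6 hps. For both genes the groups overlapped.

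Growth factor and receptor genes lay on both sides of 0, with 7 of 13 tested genes above 0 and a median of 0.05 (-0.54 with library sizes alone, 0.59 without sham replicate 2). The gene of the matrix-organizing protein dermatopontin, dpt, was at 88.1 and 306 CPM at 6 hpci and at 89.4 and 137 CPM at 6 hps. The follistatin-like gene fstl1b was at 104 and 222 CPM at 6 hpci and at 90.5 and 93.8 CPM at 6 hps, without overlap (adjusted p = 0.632). The chemokine gene cxcl12a was at 49.6 and 33.5 CPM at 6 hpci and at 27.1 and 52.3 CPM at 6 hps. nppc was at 5.10 and 27.3 CPM at 6 hpci and at 19.6 and 118 CPM at 6 hps. The groups of nppc overlapped in CPM, though not in raw CPM. Within each replicate number the 6 hpci value was lower by about the same factor (log2 ratios -1.94 and -2.11). For replicate 1 this ratio rested on 11 UMIs in 8 cells at 6 hpci and 55 UMIs in 15 cells at 6 hps. There 1 cell held 27.3% and 36.4% of the nppc UMIs. Its log2 fold change was -2.06 ± 0.95 (adjusted p = 0.559) and with the block -2.05 ± 0.39 (adjusted p = 0.00453), and it lay between -3.75 (without cryoinjury replicate 2) and -0.29 (without sham replicate 2) as libraries were left out. As given above, the raw level of nppc was higher in spock3-rich cells in 3 of the 4 libraries, and no estimate for nppc could be made once doublet-like cells were left out, since too few UMIs remained. igfbp5b, an insulin-like growth factor binding protein gene, was the other gene of this list called with the block, at 31.1 and 38.7 CPM at 6 hpci and at 9.26 and 12.8 CPM at 6 hps (adjusted p = 0.012). Over all genes tested, 1.21% were called higher and 0.454% lower with the block.

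**Figure D4:**
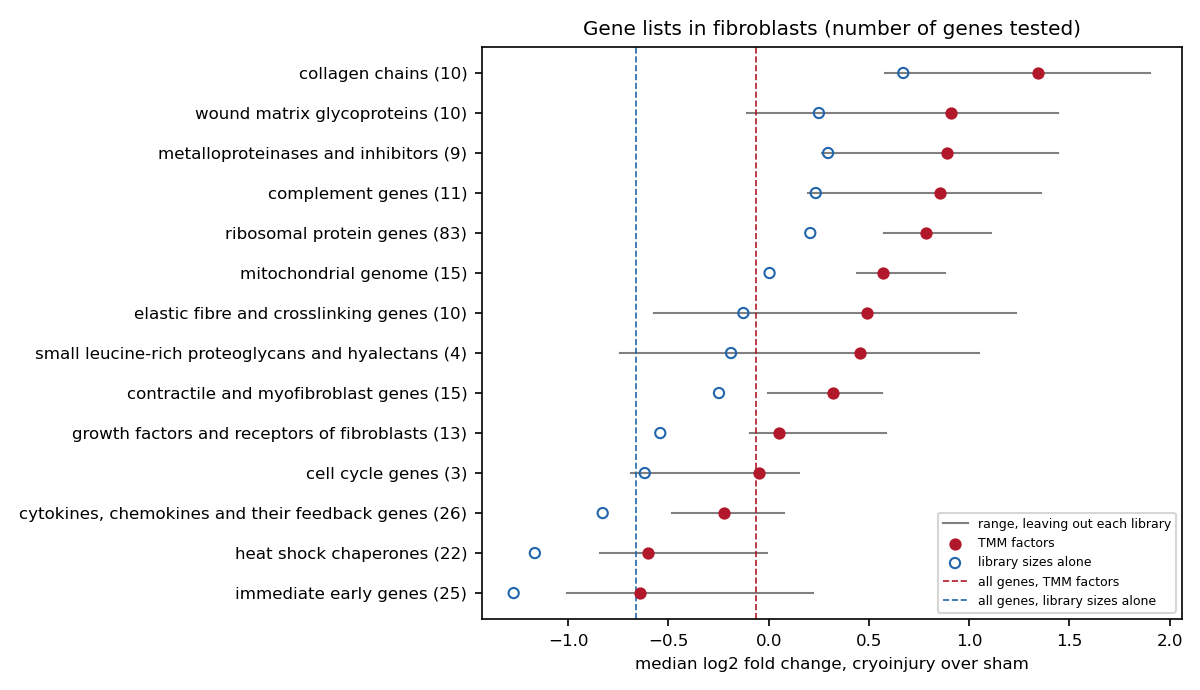
Median log2 fold change (6 hpci over 6 hps) of each gene list in fibroblasts, with TMM factors (filled) and with library sizes alone (open), the range over fits that leave out each library in turn (grey line), and the medians of all genes under both scalings (dashed lines). Numbers in brackets are genes tested, without the fibroblast and epicardial genes of the rule. Mitochondrial UMIs entered the quality limits. Collagen chains lie at 1.34 and immediate early genes at -0.64, beside -0.06 for all genes.

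Immediate early genes, which respond to stress and growth signals within minutes to hours, lay below the median of all genes. Of 25 tested, 20 had a fold change below 0, with a median of -0.64 (-1.27 with library sizes alone). Without overlap on the lower side were 6 of the 25, close to the share of all genes tested (23.4%). They took 0.0759% and 0.0944% of fibroblast UMIs at 6 hpci and 0.113% and 0.310% at 6 hps, and without sham replicate 2 the median was 0.22. fosab, a subunit of the AP-1 transcription factor, was at 116 and 196 CPM at 6 hpci and at 182.8 and 495 CPM at 6 hps, with overlapping groups. Its partner jun was at 71.4 and 82.1 CPM at 6 hpci and at 124 and 227 CPM at 6 hps, without overlap, a log2 fold change of -1.19 ± 0.44 (adjusted p = 0.540). junba was at 87.7 and 119 CPM at 6 hpci and at 92.3 and 262 CPM at 6 hps. gadd45ba, a stress-induced growth arrest gene, was at 169 and 108 CPM at 6 hpci and at 89.4 and 182 CPM at 6 hps.

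Among 26 cytokine, chemokine and feedback genes, 18 had a fold change below 0 and the median was -0.22 (0.08 without sham replicate 2). The chemokine gene cxcl18b was the most abundant, at 297 and 185 CPM at 6 hpci and at 334 and 404 CPM at 6 hps. The neutrophil attractant gene cxcl8a was at 212 and 142 CPM at 6 hpci and at 104 and 168 CPM at 6 hps, with overlapping groups. socs3a, a feedback inhibitor of cytokine signaling through STAT3, was at 74.7 and 53.3 CPM at 6 hpci and at 106 and 171 CPM at 6 hps (log2 fold change -1.12 ± 0.43, adjusted p = 0.540). The transcription factor gene cebpd was at 154 and 63.2 CPM at 6 hpci and at 130 and 136 CPM at 6 hps. With the block 1 gene of this list was higher and 3 were lower at 6 hpci, beside 1.21% and 0.454% of all genes tested. Of the called genes of the list, il11b passed the count filter only through the 6 hpci libraries and ccl19a.1 only through the 6 hps libraries. The block calls of il11b and ccl19a.1 are therefore no support for a difference. il11b, an interleukin 6 family cytokine gene, was at 24.6 and 10.4 CPM at 6 hpci and at 1.78 and 1.61 CPM at 6 hps. The chemokine gene ccl19a.1 was at 2.78 and 1.04 CPM at 6 hpci and at 59.5 and 13.8 CPM at 6 hps, ccl25b was at 15.3 and 20.8 CPM at 6 hpci and at 37.1 and 78.8 CPM at 6 hps, and socs3b was at 18.1 and 8.32 CPM at 6 hpci and at 30.6 and 53.8 CPM at 6 hps.

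Heat shock chaperone genes took 0.650% and 0.840% of UMIs at 6 hpci and 0.824% and 1.82% at 6 hps, so sham replicate 2 stood above the other 3 libraries. Of 22 tested, 18 had a fold change below 0, with a median of -0.60 (-1.17 with library sizes alone, -0.01 without sham replicate 2). hsp70l, an inducible chaperone gene, was at 600.2 and 1018 CPM at 6 hpci and at 472 and 2282 CPM at 6 hps, and hsp90aa1.2 was at 367 and 941 CPM at 6 hpci and at 451 and 1849 CPM at 6 hps. hsp90ab1, which encodes the constitutive Hsp90, was at 1453 and 2703 CPM at 6 hpci and at 1081 and 1191 CPM at 6 hps. The small heat shock protein gene hspb1 was at 2547 and 2253 CPM at 6 hpci and at 1988 and 2540 CPM at 6 hps. hsp90aa1.1, the Hsp90 gene known for folding muscle myosin in zebrafish, was at 56.6 and 31.4 CPM at 6 hpci and at 113 and 117 CPM at 6 hps. It was the single chaperone gene called with the block (log2 fold change -1.45 ± 0.37, adjusted p = 0.037), beside 0.454% of all genes tested that were called lower.

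The contractile and myofibroblast list had 10 of 15 tested genes above 0 and a median of 0.32 with TMM factors, beside -0.06 for all genes tested. With library sizes alone the list median was -0.25, beside -0.66 for all genes. Without cryoinjury replicate 2 it was -0.0053, beside -0.15. The whole list took 0.841% and 0.773% of fibroblast UMIs at 6 hpci and 1.04% and 1.11% at 6 hps, so this share was lower at 6 hpci. tpm4a, a tropomyosin gene, was at 5700 and 5168 CPM at 6 hpci and at 4929 and 4277 CPM at 6 hps. In raw CPM the order of tpm4a was reversed, at 4944 and 3923 at 6 hpci and at 5739 and 5415 at 6 hps. Its log2 fold change was 0.24 with TMM factors and -0.34 with library sizes alone. acta1b was at 1923 and 1733 CPM at 6 hpci and at 2599 and 1309 CPM at 6 hps, actb2 at 826 and 1583 CPM at 6 hpci and at 544 and 1198 CPM at 6 hps, and the myosin light chain gene myl9b at 270 and 641 CPM at 6 hpci and at 299 and 257 CPM at 6 hps. The intermediate filament gene vim, called with the block, was at 46.4 and 163 CPM at 6 hpci and at 15.7 and 61.8 CPM at 6 hps (adjusted p = 0.027). Only 3 cell cycle genes passed the filter (hmgb2a, stmn1a and pcna), and the groups overlapped for all 3. Of 83 ribosomal protein genes, 79 had a fold change above 0 with a median of 0.79. Higher without overlap were 77 of the 83, beside 17.4% of all genes tested. With library sizes alone the ribosomal median was 0.21, beside -0.66 for all genes. rplp1 was at 11258 and 13095 CPM at 6 hpci and at 7927 and 6309 CPM at 6 hps (adjusted p = 0.540), and no ribosomal protein gene was called with the block. rpl36a, rps2 and rpl39 had log2 fold changes between 0.72 and 0.87. Mitochondrial transcripts took 21.5% and 25.5% of UMIs at 6 hpci and 24.3% and 24.4% at 6 hps. Among them mt-co2, mt-co3 and mt-cyb, which encode subunits of the respiratory chain, had log2 fold changes of 0.64, 0.51 and 0.79, and the mitochondrial feature listed as NC_002333.4 had 0.46. The value of NC_002333.4 was -0.02 without cryoinjury replicate 2 and -0.15 with library sizes alone, where mt-co3 was at -0.08. With library sizes alone the median of the 15 mitochondrial features was 0.00453, again beside -0.66 for all genes. Mitochondrial UMIs entered the quality limits, so these values are a description and not a finding.

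Of the genes with a mean of at least 50 CPM and groups that did not overlap, the 10 with the smallest p on the higher side had log2 fold changes between 1.08 and 2.67. All 10 kept their sign with library sizes alone. With the block 8 were called, hbaa1 and hbaa2 among them, beside 1.21% of all genes tested that were called higher. The 10 were picked by their p in these same sums, so refitting the sums in another way adds no support. The uncharacterized gene si:dkey-183k8.2 was at 66.3 and 138 CPM at 6 hpci and at 15.3 and 16.7 CPM at 6 hps, a log2 fold change of 2.67 ± 0.48 (adjusted p = 0.540, with the block 4.1e-04). The thymosin beta genes tmsb2 and tmsb1, whose proteins bind actin monomers, were higher as well. tmsb2 was at 81.2 and 127 CPM at 6 hpci and at 29.2 and 17.5 CPM at 6 hps (log2 fold change 2.17 ± 0.46, with the block adjusted p = 0.00453), and tmsb1 was at 185 and 284 CPM at 6 hpci and at 70.195 and 80.9 CPM at 6 hps (1.63 ± 0.42, with the block adjusted p = 0.015). dkk3b, a gene of the Dickkopf family of secreted proteins, was at 103 and 283 CPM at 6 hpci and at 38.8 and 51.8 CPM at 6 hps (2.09 ± 0.555, with the block adjusted p = 0.00619, and 1.19 without cryoinjury replicate 2). dap1b was at 294 and 558 CPM at 6 hpci and at 116 and 107 CPM at 6 hps (1.93 ± 0.45, with the block adjusted p = 0.00816). CR383676.1 and si:ch211-117m20.5 were the other 2 genes outside the globins, with log2 fold changes of 1.08 and 2.21. For si:ch211-117m20.5, 1 cell held 41.1% of the UMIs in cryoinjury replicate 2, and the log2 fold change was 0.80 with deep cells left out and 1.35 without that library.

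The globin genes hbaa1, hbaa2 and hbba1 made up the rest of these 10. hbaa1 was at 14923 and 12438 CPM at 6 hpci and at 3219 and 5529 CPM at 6 hps. UMIs of these globin genes entered the quality limit that chose the barcodes. Their levels are therefore a description, and no test of them is given. Of the 11 tested features of the erythrocyte list, all had a fold change above 0, beside 2434 of the 5281 genes tested. The list includes the globin genes that entered the quality limit, so this count is a description. In the unclassed barcodes the erythrocyte list took 4.38% and 2.25% of UMIs at 6 hpci and 1.1001% and 2.22% at 6 hps, so cryoinjury replicate 1 was the highest and sham replicate 1 the lowest library in both cell sets, and its raw share in fibroblasts overlapped between the groups.

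On the lower side, 10 genes picked in the same way had log2 fold changes between -2.44 and -0.91. With the block 1 of them was called (hsp90aa1.1), beside 0.454% of all genes tested that were called lower. The 10 included jun and socs3a. C11orf96 was at 26.0 and 8.58 CPM at 6 hpci and at 55.9 and 127 CPM at 6 hps (log2 fold change -2.44 ± 0.65, adjusted p = 0.540, with DESeq2 0.016). mycb, a MYC transcription factor gene, was at 20.4 and 28.6 CPM at 6 hpci and at 32.1 and 152 CPM at 6 hps, and zfp36l1b, which encodes an mRNA-destabilizing zinc finger protein, was at 32.5 and 42.6 CPM at 6 hpci and at 69.5 and 102 CPM at 6 hps. ifitm1, an interferon-induced membrane protein gene, was at 46.4 and 12.5 CPM at 6 hpci and at 58.4 and 185 CPM at 6 hps. xbp1, a transcription factor of the unfolded protein response, was at 48.7 and 41.8 CPM at 6 hpci and at 83.0 and 86.9 CPM at 6 hps. synpo2lb, a gene of the muscle Z-disc, had a log2 fold change of -1.03 ± 0.41. ctrb1, the gene of a digestive enzyme of the pancreas, was at 117 and 106 CPM at 6 hpci and at 384 and 158 CPM at 6 hps. In all other kept barcodes ctrb1 was at 184 and 151 raw CPM at 6 hpci and 608 and 269 at 6 hps, and synpo2lb at 126 and 78.6 and at 238 and 231. Like hsp90aa1.1, both were higher there than in fibroblasts in every library. C11orf96 and ifitm1 were lower there in every library, and the remaining genes lay on both sides.

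**Figure D5:**
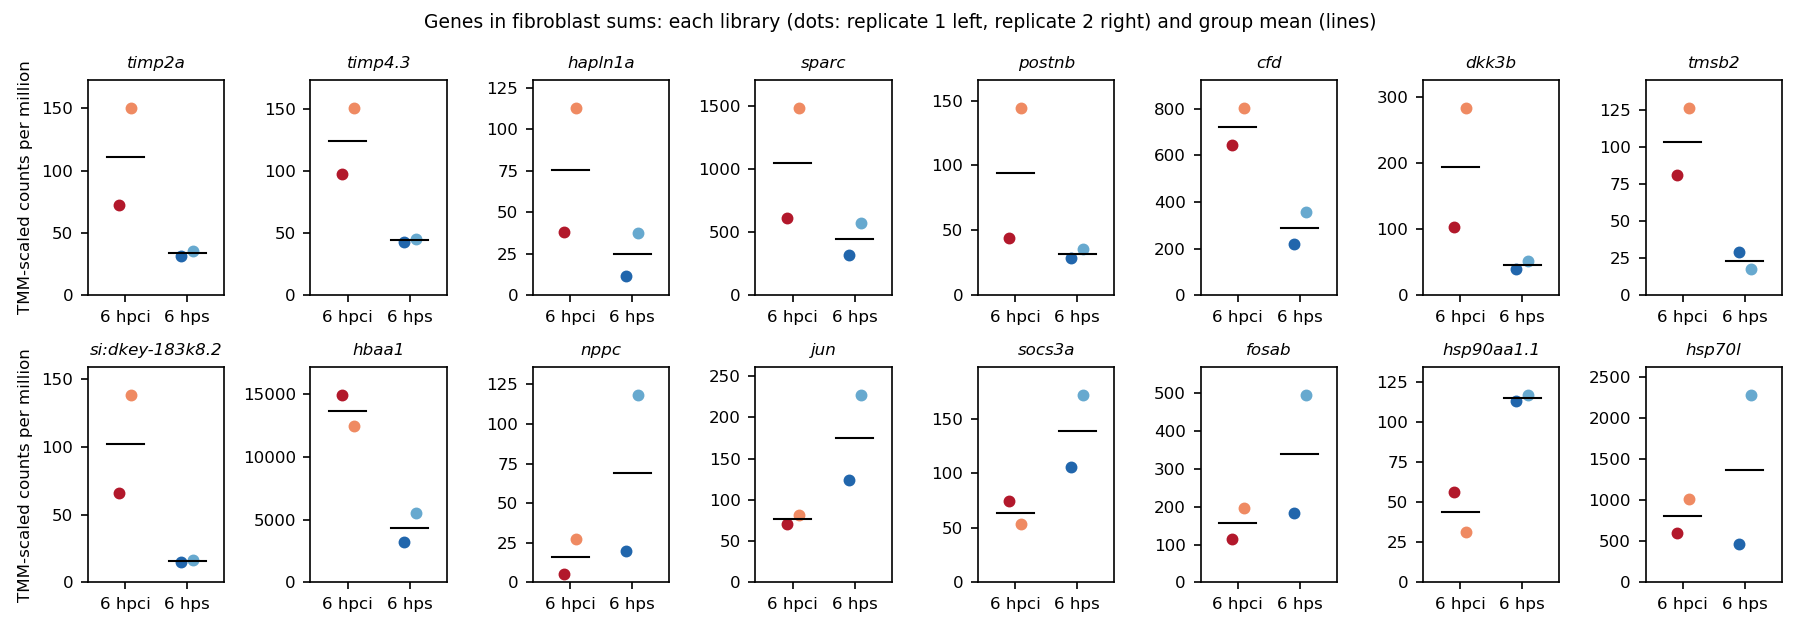
TMM-scaled counts per 1000000 (CPM) of 16 genes in the fibroblast sums, with 6 hpci at the left and 6 hps at the right of each panel, a dot per library (replicate 1 left, replicate 2 right) and a line at the group mean (n = 2). For timp2a, timp4.3, dkk3b, tmsb2, si:dkey-183k8.2 and hbaa1 both 6 hpci libraries lie above both 6 hps libraries, whereas nppc, fosab and hsp70l overlap. UMIs of hbaa1 entered the quality limits.

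Whether fibroblasts responded differently from other cells of the same hearts was tested as an interaction. Against the barcodes of the mirrored epicardial gate (2451 in all), no gene of 6859 passed the test (0%, smallest adjusted p 0.053), while 410 (5.98%) had an unadjusted p under 0.05. DESeq2 was not run for the interactions. With the replicate number by class as a block, 24 genes were called. The uncharacterized gene wu:fj16a03 had the smallest p, at 90.9 and 135 CPM in fibroblasts at 6 hpci and 94.1 and 78.5 at 6 hps, and at 32.2 and 46.0 CPM in the neighboring gate at 6 hpci and 65.1 and 75.8 at 6 hps (interaction 1.25 ± 0.22 on the log2 scale, adjusted p = 0.053, with the block 0.00268). postnb was at 47.7 and 156 CPM in fibroblasts at 6 hpci and 30.1 and 34.2 at 6 hps, and at 7.77 and 17.8 CPM in the neighboring gate at 6 hpci and 7.44 and 15.9 at 6 hps. Its interaction was 1.45 ± 0.32 (adjusted p = 0.167, with the block 0.013, and 0.91 without sham replicate 2). c1qtnf5, which encodes a secreted C1q-domain protein, had an interaction of 1.26 ± 0.30 (adjusted p = 0.234), CR936442.1 had 1.24 ± 0.28 (adjusted p = 0.153) and zgc:123068 had 0.99 ± 0.19 (adjusted p = 0.054). In the other direction, clic2, an intracellular chloride channel family gene, had -0.99 ± 0.19 (adjusted p = 0.054), mycb had -0.88 ± 0.26 (adjusted p = 0.558), the natriuretic peptide gene nppb had -0.67 ± 0.20 (adjusted p = 0.592), jun had -0.58 ± 0.19 (adjusted p = 0.713) and hsp70l had -0.50 ± 0.17 (adjusted p = 0.765). The interaction of c1qtnf5 was 0.76 without cryoinjury replicate 2, and that of mycb was -0.47 without sham replicate 2.

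Against all other kept barcodes, 28 of 13448 genes passed (0.208%, with 5.12% at an unadjusted p under 0.05), 19 with a more positive (0.141%) and 9 with a more negative change in fibroblasts. si:dkey-183k8.2 was at 67.5 and 134 CPM in fibroblasts at 6 hpci and 15.5 and 14.4 at 6 hps, and at 16.5 and 17.4 CPM in the other barcodes at 6 hpci and 5.02 and 9.87 at 6 hps (interaction 1.53 ± 0.27, adjusted p = 7.0e-05). gstm.3, a glutathione S-transferase gene of the epicardial list, was at 901 and 2740 CPM in fibroblasts at 6 hpci and 776 and 291 at 6 hps, and at 187 and 486 CPM in the other barcodes at 6 hpci and 241 and 181 at 6 hps (1.198 ± 0.23, adjusted p = 8.8e-04). dkk3b was at 105 and 275 CPM in fibroblasts at 6 hpci and 39.4 and 44.7 at 6 hps, and at 20.8 and 44.9 CPM in the other barcodes at 6 hpci and 10.9 and 23.5 at 6 hps (1.14 ± 0.25, adjusted p = 0.00477). si:ch211-105c13.3 and dap1b had interactions of 1.08 ± 0.24 (adjusted p = 0.00846) and 1.012 ± 0.24 (adjusted p = 0.015). For all 5 genes the call was lost without sham replicate 2, where the interactions were between 0.63 and 0.99. Without cryoinjury replicate 2 the calls of si:dkey-183k8.2 (1.06), si:ch211-105c13.3 (0.83) and dap1b (0.74) were lost, and with library sizes alone those of dkk3b (0.97), si:ch211-105c13.3 (0.92) and dap1b (0.86). Without sham replicate 1 the calls of dkk3b (1.51), si:ch211-105c13.3 (1.54) and dap1b (1.18) were lost, and with the replicate number by class as a block that of dap1b (adjusted p = 0.062).

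Among abundant genes with a more negative change in fibroblasts, lyz and lect2l passed the test, and ccl35.1, ifitm1 and acta1a did not (adjusted p between 0.414 and 0.761). The lysozyme gene lyz, a neutrophil and macrophage product, was at 52.9 and 30.3 CPM in fibroblasts at 6 hpci and 9.40 and 376 at 6 hps, and at 224 and 249 CPM in the other barcodes at 6 hpci and 20.02 and 289 at 6 hps (interaction -2.43 ± 0.28, adjusted p = 2.0e-12). Its UMIs came from 19 and 28 fibroblasts at 6 hpci and from 5 and 113 at 6 hps, and a single cell held between 19.96% and 53.8% of them in each library. lect2l, a leukocyte chemotaxin gene, was at 90.2 and 55.1 CPM in fibroblasts at 6 hpci and 16.6 and 53.2 at 6 hps, and at 153 and 139 CPM in the other barcodes at 6 hpci and 15.5 and 47.5 at 6 hps (-1.19 ± 0.26, adjusted p = 0.00375), with UMIs in 22 and 33 fibroblasts at 6 hpci and 7 and 57 at 6 hps. Without sham replicate 2 neither gene was called (-1.37 and -1.04), nor was either without cryoinjury replicate 2 (-1.99 and -0.90). Without sham replicate 1 lyz was still called (-2.99) and lect2l was not (-1.26). Both are genes of the neutrophil list, whose share of fibroblast UMIs is given above.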

How the data were processed

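The authors deposited UMI counts per gene and barcode for 4 libraries, made with Cell Ranger 4.0.0 against GRCz11 with Ensembl release 92 and an added RFP gene (0 UMIs in all libraries). Groups and replicate numbers came from the sample titles. The members and gene lists were chosen with earlier results of these data known. Fibroblast counts were summed per library and compared with edgeR 4.0.16 in R 4.3.3 (TMM, filterByExpr at a minimum count of 10, robust glmQLFit, design of group alone, Benjamini-Hochberg adjustment, threshold 0.05). The fibroblast and epicardial genes of the rule and rgs5a stayed in the fit and in its counts over all genes. Of the 5281 genes, 5266 were not among them, and no test of them is reported. Globin and mitochondrial genes, whose UMIs entered the quality limits, also stayed in the fit and in these counts. Their levels and fold changes are a description. The standard error is the size of the log2 fold change over the square root of F. Interactions were fitted on sums per library and class, with the library as a block. DESeq2 1.42.0, other scalings and filters, other cell rules, thinned cells and left-out libraries were alternatives, 2 of them chosen after seeing the data. No doublet caller was run, and doublet-like cells (at least 3 endothelial or leukocyte genes) were left out in an alternative. The code was tested on simulated counts.

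Named genes were the rule genes, up to 4 of the most abundant tested genes of each list, up to 10 genes in each direction with the smallest p among those of at least 50 CPM with groups that did not overlap, and up to 5 in each direction per interaction at that level. Genes called with the block in a list were added after their values were seen. The study's sample list names the same experimenter for both libraries of a replicate number, and the numbers were taken to pair the libraries. A shared experimenter does not by itself make libraries a matched pair. The paper describes the cryoinjury and sham samples as independent, biologically and experimentally, although its supplement speaks of a replicate pair. The block and the ratios within a replicate number therefore rest on an assumed pairing. Deviations of same-numbered libraries from their group means correlated at 0.33 over 5281 genes, a value that 2 groups of 2 give equally for both numbers. P-values cover only the spread between these libraries, estimated for each gene with help from all genes, and with the block largely from all genes.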

Additional observations from a re-analysis of the deposited data

Results flagged for a closer look

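Against the mirrored epicardial gate, no gene of 6859 passed the interaction test. The change in fibroblasts differed by test from that in all other kept barcodes for 7 named genes. On the log2 scale the difference was 1.53 for si:dkey-183k8.2, 1.198 for gstm.3, 1.14 for dkk3b, 1.08 for si:ch211-105c13.3 and 1.012 for dap1b, each more positive in fibroblasts, and -2.43 for lyz and -1.19 for lect2l, both more negative in fibroblasts. Without sham replicate 2 none of the 7 was called.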

How the results depend on the processing

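The difference in the share of fibroblasts, near 0 under the rule as given, turned positive when doublet-like cells were left out (0.364 percentage points), when the rgs5a condition was dropped (1.1e-04), with cells of at least 5 marker UMIs per 10000 only (0.198) and with barcodes thinned to 1000 UMIs (0.210). It lay between -1.99 and 1.90 as each library was left out. For genes called in fibroblasts, 0 became 62 without a filter on low counts, 31 with DESeq2 and between 1 (without sham replicate 2) and 281 (without cryoinjury replicate 1) as libraries were left out. Genes of the lists numbered 0 at first, 6 without the filter, 5 with DESeq2 and between 1 and 32 without a library. Both counts were 0 under the other scalings and cell rules. Where a group kept a single library, its spread was taken from the other group.

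With the replicate block, 88 genes and 15 genes of the lists were called. For the response set against the mirrored epicardial gate 24 were called with the block, 21 with library sizes alone, 37 without the filter, and between 3 (without sham replicate 2) and 67 (without cryoinjury replicate 1) without a library. Against all other kept barcodes, 18 were called with library sizes alone, and between 11 (without sham replicate 2) and 142 (without cryoinjury replicate 1) without a library, and 31 with the block.

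With 2 libraries a group, 215 cells in the smallest sum and 46.4% of barcodes lost to the mitochondrial limit in cryoinjury replicate 2, the precision for rare genes was limited.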
